A study of Gallus gallus with 12 samples.

Results

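The 10 genes treated here help to decide whether a cell burns glucose or fatty acids, and their signals were followed in the hypothalamus of heat-stressed chickens. They were PDK4, UCP3, CPT1A, CROT, PPARGC1A, PPARA, PPARD, PPARG, PRKAA1 and PRKAA2, and they were chosen by symbol, with results from these arrays already known. Of 43603 probes on the array besides the controls, 20 carried one of these 10 genes, out of 4815 genes with a name. By the study's methods, the birds were 12 female broilers, sharing both parents or 1 parent and aged 56 d, all reared at 25°C. Their line is given here as Anak_40, which the methods in the paper do not name. The HS group (n = 4) was held at 34°C for 24 h and dissected at once. The TR group (n = 4) had the same 24 h at 34°C and then 24 h of recovery at 25°C. The CL group (n = 4) stayed at 25°C. By the methods it was kept there for 24 h more and its collection is named together with that of TR. The day of collection may thus differ between HS and the other groups. Every bird gave 1 array in 1 colour, named here by group and number, as in HS1.

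Pyruvate dehydrogenase turns pyruvate from glucose into acetyl-CoA, and the PDK kinases switch it off, so that PDK4 spares glucose while fat is oxidized. Long-chain fatty acids reach the mitochondrial matrix as carnitine esters made by CPT1A. CROT makes the carnitine esters of medium-chain acids shortened in peroxisomes. UCP3 is a carrier of the inner mitochondrial membrane that is best known from muscle and has been tied to fatty acid handling. The nuclear receptors PPARA, PPARD and PPARG, with the coactivator PPARGC1A, switch on genes of this kind, and AMPK, whose catalytic subunits are PRKAA1 and PRKAA2, senses low energy and in the hypothalamus takes part in the control of feeding.

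Values are log2 signals after quantile normalization between arrays, and a level is not comparable between probes. Tests took in the probes whose signal stood above background throughout at least 1 group. Of the 20 probes, 15 passed, for 8 genes, and 14 of these were above background on all 12 arrays. PPARG and PRKAA2 did not pass, and neither did 2 of the 4 UCP3 probes. DE (differentially expressed) means a p under 0.05, a fold change past 1.5 and an FDR (Benjamini-Hochberg) below 0.15, the cutoffs of the study's methods, applied here to limma's test.

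The spots above background numbered 33505 to 36852 per array. The median signal over background was 15.6 to 17.3 in HS, 13.6 to 16.1 in TR and 11.8 to 13.7 in CL. It was higher on every HS array than on every CL array, and its part in the values of dim probes was not tested. Slides held 1 group each, and the scan day of CL differed from that of HS and TR, so that slide, and for CL scan day, cannot be told apart from the group. Other fields of the labels contradict the titles and methods: they name spleen of male birds, infected with MDV in HS and TR and not infected in CL, with ages that vary from bird to bird. The groups here follow the titles, and which fields are right was not tested beyond the tissue markers. Brain markers were present on every array: all 6 measured oligodendrocyte genes and all 8 measured astrocyte genes were above background on all 12. Lymphoid genes were present too, with 7 of 10 measured genes above background on all 12 arrays and summed signals of 280100 to 298800 in HS, 300300 to 330000 in TR and 310000 to 347400 in CL. CD74, at 18.07 to 18.38 on the log2 scale, made up most of each sum, which says little of the other genes. Over all 12 birds the summed signals of the choroid plexus genes ran from 6690 to 15350 (3 of 6 measured genes above background on all arrays), of pituitary genes from 883.3 to 1668 (3 of 8), of smooth muscle and vessel genes from 23570 to 47350 (8 of 8) and of erythroid genes from 19690 to 170100 (4 of 6), the last highest on CL2. In the smooth muscle and vessel list, MYLK had values only on TR1, TR2, TR4 and CL4 once outlier spots were left out. These arrays had the highest sums of that list, so its range does not compare the same genes on all birds. In RNA of whole tissue, fewer cells of a type and less RNA per cell cannot be told apart.

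In HS vs. CL, 2 of the 15 tested probes were DE, PDK4 higher and 1 UCP3 probe lower, where 3.58% of all 34920 tested probes were DE (1.85% higher, 1.73% lower), and the same 2 had an unadjusted p under 0.05 and groups that did not overlap, against 20.7% and 11.9% of all probes. In HS vs. TR none of the 15 was DE against 1.84% of all probes (1.16% higher, 0.684% lower), with 3 of the 15 under an unadjusted p of 0.05 against 16.4% and 2 without overlap against 11.3%. In TR vs. CL none of the 15 was DE or under an unadjusted p of 0.05, against 0.0945% (0.0458% higher, 0.0487% lower) and 7.79% of all probes, and 1 had no overlap, against 5.3%. PDK4, UCP3 and CROT were picked by the study from these same arrays, so their values in the contrasts with HS are a description. The TR and CL birds entered those contrasts, so TR vs. CL is not independent of that choice for these 3 genes either. For these 3 genes, DE says only that a probe passed the cutoffs, gives no evidence beyond that choice, and is printed with no p-value. The study also measured PDK4 by qRT-PCR on the same samples. It reported a significantly higher level in HS than in CL, by a smaller fold change than on the arrays. That measurement is not among the data used here. The intervals of PDK4 and UCP3 in all comparisons take no account of that choice and are not tests.

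PDK4 had the larger log2 change of the 2 members whose HS and CL birds did not overlap. Its log2 signal was 9.99, 10.38, 10.22 and 10.82 in HS birds, against 9.32, 8.63, 8.93 and 9.29 in CL birds. All 4 HS birds lay above all 4 CL birds, as they did at 4.54% of all tested probes. The mean was 10.35 ± 0.35 in HS and 9.04 ± 0.33 in CL (SD, n = 4 each), a log2 change of 1.31 (SE 0.30, 95% interval 0.65 to 1.96) or a fold change of 2.47. With 1 bird left out at a time the change ran from 1.15 to 1.43, and with both HS2 and CL2 left out it was 1.16 and short of the cutoffs.

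After recovery the mean PDK4 signal lay between those of the other groups, and the birds spread widely. The TR birds had 8.92, 10.25, 10.16 and 9.38 (9.68 ± 0.64, SD, n = 4). TR2 and TR3 lay within the HS range, TR1 lay within the CL range and TR4 lay just above it. The log2 change was 0.67 in HS vs. TR (95% interval 0.02 to 1.32), with overlapping groups. In TR vs. CL it was 0.63 (95% interval -0.02 to 1.29), with overlapping groups and not DE.

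Neuropeptide genes of hypothalamic neurons differed widely between the birds. Of the 15 neuropeptide genes listed, 9 had a probe, 8 were above background on some array and 5 on all 12, and CRH, the corticotropin-releasing hormone, was on none. AVP, the avian antidiuretic hormone vasotocin, SST1 and GNRH1 were DE and higher in HS vs. CL, and TRH, NPY and HCRT were not DE. The summed signal of the list, of which AVP was the larger part on each array except CL2 and CL4, was 88750, 218400, 351200 and 454300 in HS birds, 10370, 130100, 14970 and 3235 in TR birds and 212300, 550.2, 13790 and 3790 in CL birds. CL2 was the lowest bird and HS4 the highest in both PDK4 and this sum. The order was not the same throughout: CL1 had a sum within the HS range and a PDK4 signal of 9.32, below all 4 HS birds, and TR3 had a sum below all HS birds and a PDK4 signal of 10.16, within their range.

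Of the 7 measured genes of the neuron list, 3 were DE and higher in HS in both contrasts with HS, namely STMN2, NEFL and NEFM, which encode proteins of the neuronal cytoskeleton, and SYT1, SYP, ENO2 and ELAVL4 were DE in neither. All 7 were above background on all 12 arrays, and their sums ran from 31490 to 126500 in HS, from 23370 to 30290 in TR and from 25160 to 35780 in CL. HS and CL overlapped, with HS1 and HS2 below CL1. With log2 of the neuropeptide sum as a covariate, an alternative chosen after these values were seen, the PDK4 log2 change in HS vs. CL was 0.78 and no longer DE, and the DE probes over the whole array numbered 49, against 1250 without it. AVP, itself DE and higher in HS vs. CL, was the larger part of this sum on each array except CL2 and CL4. The covariate thus cannot separate the neurons' share of the tissue from the heat. The part of that share in the PDK4 values was not tested.

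**Figure D1:**
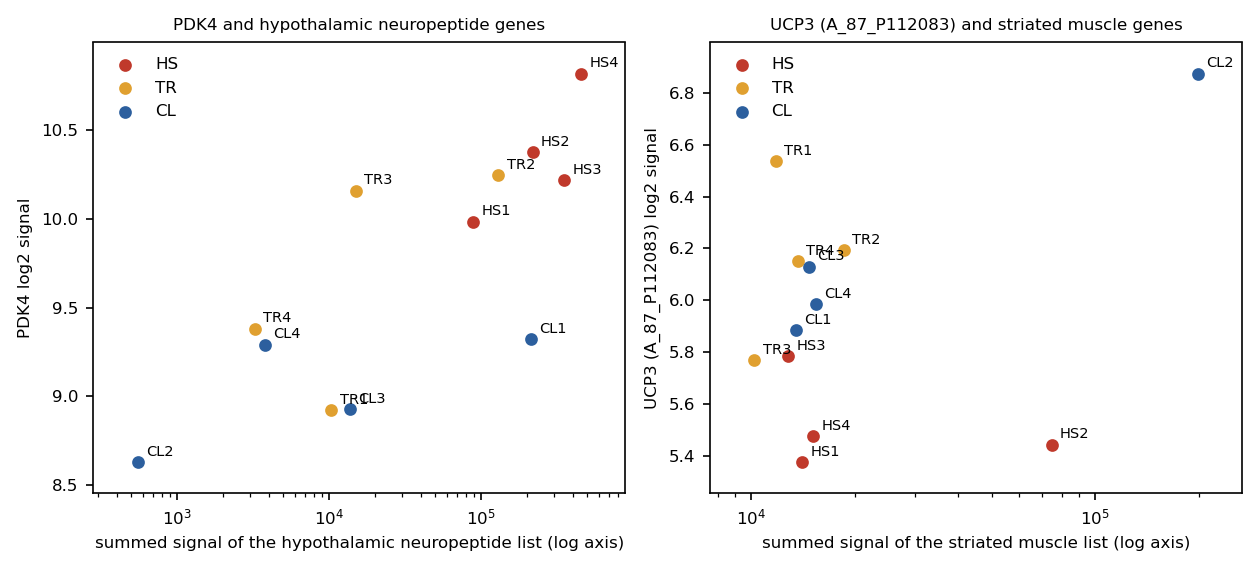
Left, PDK4 log2 signal of each bird against the summed signal of the hypothalamic neuropeptide genes; right, log2 signal of the UCP3 probe A_87_P112083 against the summed signal of striated muscle genes, both sums on log axes and each point 1 array. HS4 is highest and CL2 lowest on both axes of the left panel, where CL1 has a large sum with a low PDK4 signal and TR3 the reverse; in the right panel CL2 is highest on both axes, while HS2, with the next highest muscle sum, has 1 of the lowest UCP3 signals.

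UCP3 was measured by 4 probes of the same transcript, of which 2 passed the filter. Probe A_87_P112083 gave 5.38, 5.45, 5.79 and 5.48 in HS birds, against 5.88, 6.87, 6.13 and 5.99 in CL birds. The 4 HS birds lay below all CL birds, as at 7.38% of all tested probes, and HS4 was not above background. The log2 change was -0.70 (SE 0.22, 95% interval -1.18 to -0.22), a signal 1.62-fold lower in HS. The probe entered the fit only through TR and CL, the groups where it was brighter, so its passing of the cutoffs supports nothing about UCP3, and with probes above background on all 12 arrays it was not in the fit. The lowest signal marked as above background ran from 4.12 to 5.56 between arrays, close to its values.

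The TR birds read 6.54, 6.20, 5.77 and 6.15 at this probe, within the CL range except for TR3. TR3 also lay just below HS3, so that HS and TR overlapped. The log2 change was -0.64 in HS vs. TR (95% interval -1.12 to -0.16) and -0.06 in TR vs. CL (95% interval -0.53 to 0.42), neither of them DE. The study's supplementary list gives UCP3 as DE and lower, without naming the comparison. Its fold change is close to that of this probe in HS vs. TR.

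The brighter UCP3 probe, A_87_P056696, was above background on all 12 arrays and showed less difference. It gave 5.88, 6.06, 6.25 and 5.96 in HS birds, 6.61, 6.25, 6.17 and 6.09 in TR birds and 6.06, 6.78, 6.21 and 6.08 in CL birds. All 3 groups overlapped, and the log2 change was -0.25 in HS vs. CL (95% interval -0.62 to 0.13), not DE. Over the 12 arrays the 2 probes followed each other (Pearson's r = 0.896, a description), with CL2 and TR1 highest at both. The other 2 probes were dim: A_87_P112088 was above background on CL2 alone, and A_87_P112093 on HS1 and CL2.

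The UCP3 call at probe A_87_P112083 lay close to the limits. It was lost when any 1 of the 4 HS birds, CL2 or CL3 was left out (log2 change -0.79 to -0.48, smallest in size without CL2), without HS2 and CL2 together (-0.45) and with normexp background correction (-0.39). Genes of striated muscle, the tissue best known for UCP3, were highest on CL2 and HS2: the summed signal of the 13 measured genes was 14120, 74730, 12820 and 15150 in HS, 11830, 18640, 10230 and 13700 in TR and 13480, 198500, 14730 and 15480 in CL. CL2 was thus highest in both UCP3 and muscle genes, whereas TR1, next highest in UCP3, had a muscle sum among the lowest, and HS2 had a high muscle sum with a low UCP3 signal. Except on HS2 and CL2, TNNC1 was the largest part of the sum, at a log2 signal of 12.51 to 13.77 over all birds. TNNC2 ran from 6.66 to 16.07, with 11.03 on HS4 and 8.58 on TR1, so the sum hides differences in other muscle genes. The part of muscle RNA in the UCP3 values was not tested beyond this.

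**Figure D2:**
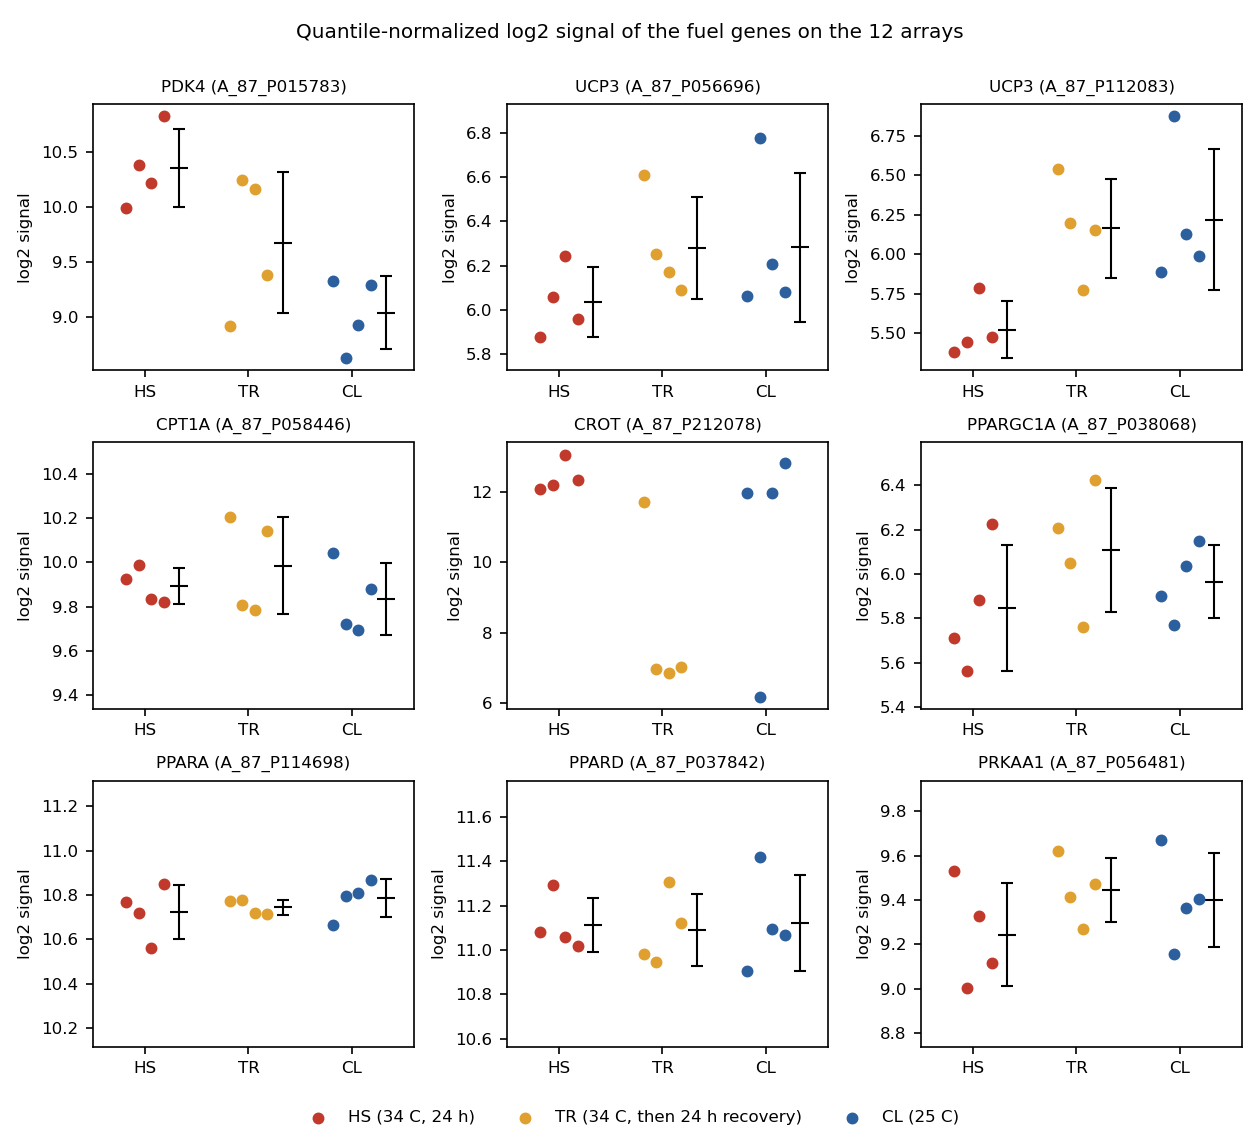
Quantile-normalized log2 signal of the brightest tested probe of each of 8 genes, and of the DE probe of UCP3, in HS, TR and CL birds; each point is 1 array, the bars are the mean and SD of 4 arrays (none is drawn for CROT), and each panel has its own scale. The 4 HS birds lie above the 4 CL birds for PDK4 and below them for UCP3 A_87_P112083, CROT falls into 2 levels, and the groups overlap in the other panels.

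CROT behaved unlike every other member, with a high and a low level and nothing between. Its log2 signal was 12.09, 12.20, 13.06 and 12.34 in HS birds, 11.72, 6.98, 6.85 and 7.04 in TR birds and 11.96, 6.19, 11.96 and 12.81 in CL birds. All 4 HS birds, TR1 and 3 CL birds were high, and TR2, TR3, TR4 and CL2 were low. The lowest of the high birds lay 4.68 above the highest of the low birds on the log2 scale, a 25.6-fold gap, and all 12 arrays were above background.

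A gap this wide was rare on the array. Of 32047 probes with a value and above background on all 12 arrays, 2 had a gap at least as wide with 3 or more arrays on each side, CROT being 1 of them, and 3 had a gap over 4. Of 39007 probes above background on any array, CROT alone divided these same 8 and 4 birds by more than 1 on the log2 scale, and none divided them as widely the other way round. This search was made after the values were seen.

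Because CROT fell into 2 levels, no interval or p-value is given for its changes. All HS birds lay above all TR birds, as at 4.67% of all tested probes. The log2 change was 4.27 in HS vs. TR, a fold change of 19.4. It was short of the cutoffs, and past them without TR1 (5.47) and without CL2 (4.27). The study's supplementary list gives CROT as DE at close to this fold change, without naming the comparison. In HS vs. CL the log2 change was 1.69 and in TR vs. CL -2.58. CL2 moved both values: without it the change was 0.18 for HS against CL and -4.10 for TR against CL.

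Within 10 places of CROT in the gene order of the reference assembly GRCg7b, 5 genes had a named probe, and none divided the birds in the same way. The genes next to it had no named probe here. ABCB1, which encodes a drug efflux pump and lies 2 genes away, ranged from 11.49 to 12.48 over the 12 birds, with its lowest value on TR1. SRI, the calcium-binding protein sorcin, ranged from 14.33 to 14.71, and RUNDC3B from 7.37 to 8.76. ITGA8, an integrin subunit 9 genes away on the other side, was high in all 4 TR birds (7.01 to 7.80) and in CL2 (6.81) and lower in HS birds (5.40 to 5.95) and the other CL birds (5.83 to 6.03), so that it shared with CROT the low and high sides of 11 birds, in reverse, but not of TR1. FAM188A ranged from 10.62 to 11.25.

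**Figure D3:**
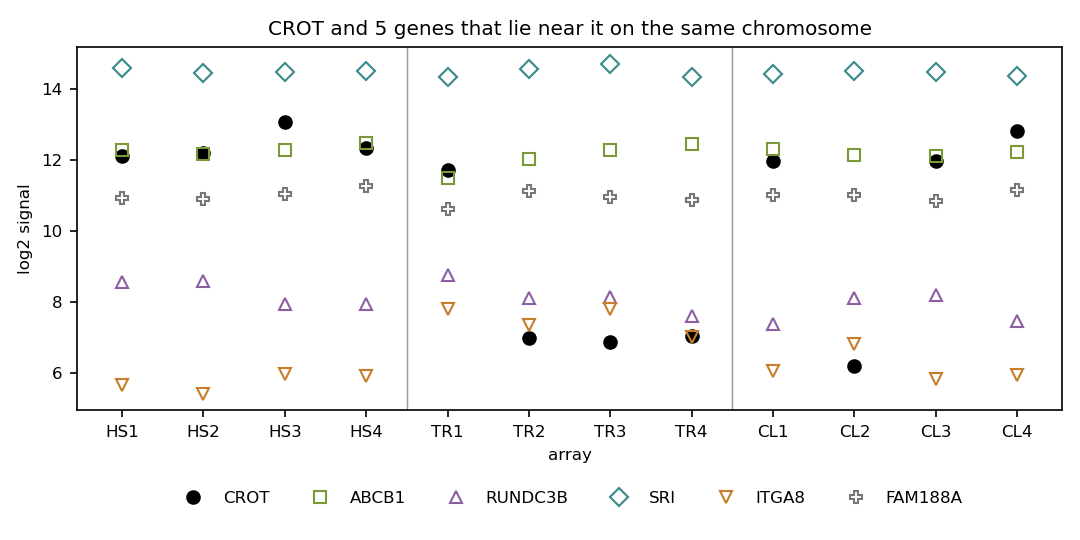
Log2 signal of CROT (filled circles) and of 5 genes within 10 places of it on the chromosome (open symbols) on each of the 12 arrays, in the order HS, TR, CL. CROT lies at 11.72 or above on 8 arrays and at 7.04 or below on TR2, TR3, TR4 and CL2, while ABCB1, SRI, RUNDC3B and FAM188A show no such gap.

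CPT1A, the gate for long-chain fatty acids into mitochondria, did not pass the test in any comparison at either probe. Probe A_87_P058446 read 9.93, 9.99, 9.84 and 9.82 in HS birds, 10.21, 9.81, 9.78 and 10.14 in TR birds and 10.04, 9.72, 9.70 and 9.88 in CL birds. The log2 change in HS vs. CL was 0.06 (95% interval -0.20 to 0.32, limma adjusted p = 0.821), which leaves out a fold change of 1.5 either way. Probe A_87_P116453 gave -0.06 (95% interval -0.28 to 0.16), and the 2 probes did not vary together over the 12 arrays (r = -0.004).

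The coactivator PPARGC1A was dim, between 5.56 and 6.42 on all arrays at both probes. Probe A_87_P038068 averaged 5.85 ± 0.28 in HS, 6.11 ± 0.28 in TR and 5.97 ± 0.16 in CL (SD, n = 4 each), with overlapping groups. Its log2 change was -0.12 in HS vs. CL (limma adjusted p = 0.728) and -0.26 for HS against TR (adjusted p = 0.462), and the other probe gave 0.10 and 0.01. The 2 probes varied together (r = 0.768), both being highest on HS4 and TR4.

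Of the 3 receptors, PPARA and PPARD were above background on all 12 arrays, and neither passed the test. PPARA had 3 probes with log2 changes of -0.06, -0.11 and -0.0002 in HS vs. CL, none with an adjusted p under 0.495 (limma). At probe A_87_P037843 all 4 TR birds (8.88, 8.95, 8.89 and 8.88) lay above all HS birds (8.87, 8.72, 8.71 and 8.83) and above all CL birds (8.77, 8.63, 8.87 and 8.86). The differences were small, -0.12 in HS vs. TR (adjusted p = 0.470) and 0.12 in TR vs. CL (adjusted p = 0.736), and such an order was seen at 6.66% and 2.38% of all tested probes.

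PPARD averaged 11.11 ± 0.12 in HS, 11.09 ± 0.16 in TR and 11.12 ± 0.22 in CL at its brighter probe (SD, n = 4 each). The log2 change in HS vs. CL was -0.01 (95% interval -0.28 to 0.26, limma adjusted p = 0.976), and the second probe gave 0.11 (adjusted p = 0.674). PPARG, the receptor best known from fat cells, had 1 probe that was not above background on any array, with log2 values of 2.43 to 5.09, so that no change is given.

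PRKAA1, the AMPK catalytic subunit with a usable signal, averaged 9.24 ± 0.23 in HS, 9.44 ± 0.15 in TR and 9.40 ± 0.21 in CL at its brighter probe (SD, n = 4 each). The log2 change was -0.16 in HS vs. CL (95% interval -0.46 to 0.15, limma adjusted p = 0.555) and -0.20 for HS against TR (adjusted p = 0.500). The second probe gave 0.04 and -0.14, and over the 12 arrays the 2 probes ran against each other (r = -0.375). PRKAA2 had 2 probes, 1 above background on no array and 1 on CL4 alone.

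**Figure D4:**
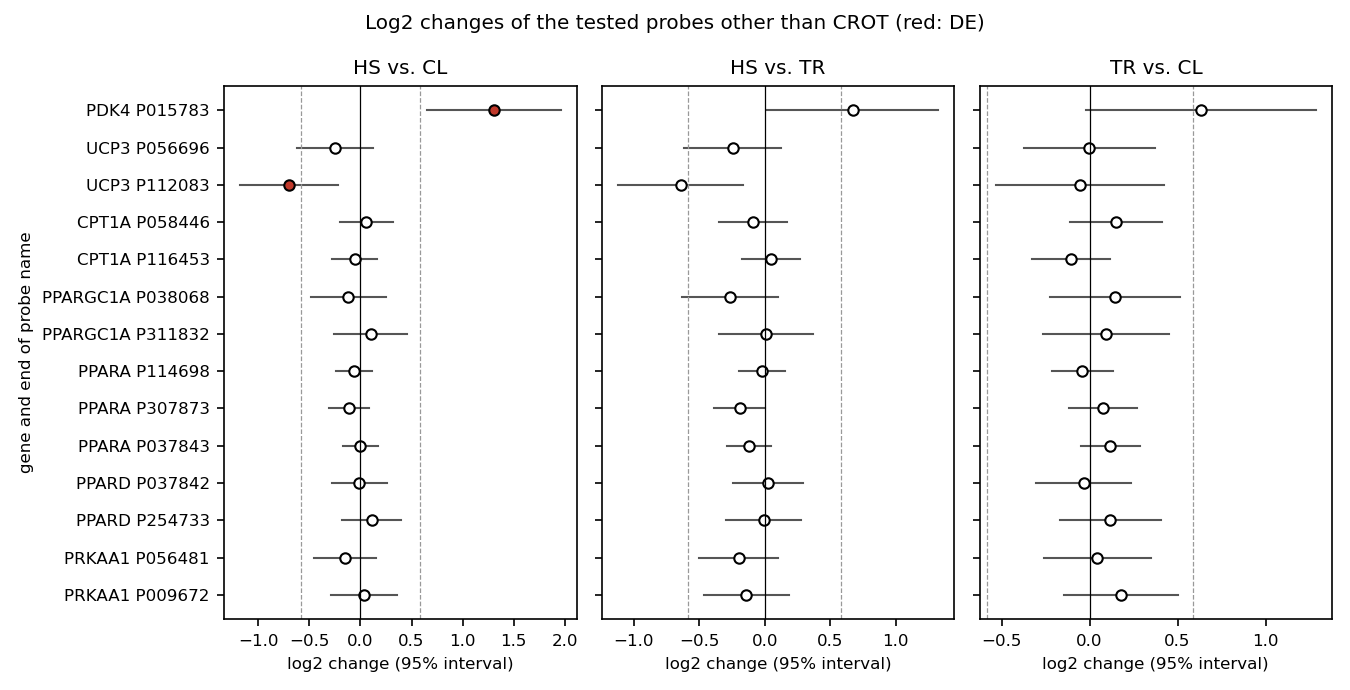
Log2 change with its 95% interval for the 14 tested probes other than CROT, 1 panel for each comparison (limma, 12 arrays); filled red points are DE and dashed lines mark a fold change of 1.5. For PDK4 and UCP3 the intervals in all panels are a description and not a test. PDK4 (1.31) and UCP3 P112083 (-0.70) are the red points, both in HS vs. CL, and the changes of the 11 probes of the other 5 genes lie between -0.26 and 0.18 in all 3 panels.

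The wider fuel pathways were read from 13 lists of 145 genes besides the members, of which 70 had a named probe and 68 were tested. None was DE in HS vs. CL, where 3.58% of all tested probes were, and the median log2 change was 0.00 against -0.04 over all probes. In HS vs. TR 1 of the 68 was DE, RXRG, against 1.84% of all probes, and in TR vs. CL none, against 0.0945%. At such shares few or no DE genes are awaited in lists of this size, so the counts here and below are a description. HS birds lay wholly above CL birds for 2 of the 68 genes and wholly below for 2, where 4.54% and 7.38% of all probes did so, and above TR birds for 1 and below for 5, against 4.67% and 6.66%.

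Around PDK4 itself, the pyruvate dehydrogenase list had 5 tested genes and none was DE. The kinases PDK1 and PDK3 had log2 changes of 0.20 and 0.13 in HS vs. CL (limma, adjusted p = 0.425 and 0.357). DLAT, the acetyltransferase subunit of the complex, had the largest change of the 68 genes, -1.20 in HS vs. CL (SE 0.85, adjusted p = 0.447). DLAT was above background on 2 HS arrays and on all TR and CL arrays, with 4.94, 4.34, 7.29 and 4.53 in HS birds, 7.65, 5.95, 7.60 and 7.65 in TR birds and 5.06, 8.28, 7.50 and 5.07 in CL birds, so that its values were scattered within HS and CL. It entered the fit only through TR and CL, the groups where it was brighter. On HS2 and HS4 it lay below the lowest signal marked as above background (4.58 and 5.56), so the size of its change supports nothing.

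No tested enzyme of fatty acid oxidation passed the limits, where 3.58% of all tested probes were DE in HS vs. CL. Of 16 listed genes of mitochondrial beta-oxidation, 7 were tested. None of the 7 was DE, with log2 changes from -0.26 to 0.33 in HS vs. CL. HADHA, a subunit of the trifunctional protein, read 12.47, 12.35, 12.41 and 12.39 in HS birds, against 12.51, 12.80, 12.69 and 12.65 in CL birds. All HS birds lay below all CL birds (log2 change -0.26, SE 0.07, limma adjusted p = 0.0893), a difference under the fold limit of 1.5, and DECR1 had 0.33 (adjusted p = 0.571).

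Of 13 listed genes of the peroxisome, where CROT's substrates arise, 6 were tested. None was DE, with CAT (catalase) at -0.34 and PHYH at 0.33 the widest in HS vs. CL. In the carnitine shuttle, the transporter SLC22A5 was the 1 other gene tested, at 0.20 (limma, adjusted p = 0.460). Of 9 tested genes of fatty acid uptake and activation none was DE, FABP7, the brain fatty acid binding protein of glia, at -0.59 (adjusted p = 0.356) and FABP4 at 0.50 (adjusted p = 0.479) being furthest from zero. DBI, which binds acyl-CoA, had too few values once outlier spots were left out and was not tested. It was DE in HS vs. TR with those spots kept (log2 change 0.72). The study's supplementary list names FABP7, DBI and ACSBG2, an acyl-CoA synthetase, as DE without naming the comparison, FABP7 with a positive fold change. FABP7 was read here at its brightest probe alone, and ACSBG2 had no probe matched by symbol, so the list is not shown to be unchanged.

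The carriers listed with UCP3 were not DE either: SLC25A4 and SLC25A6, both adenine nucleotide translocators, had log2 changes of -0.48 and -0.19 in HS vs. CL (limma, adjusted p = 0.574 and 0.313). All TR birds lay below all CL birds for SLC25A4 (log2 change -1.23, adjusted p = 0.561), as at 2.92% of all probes, and CL2, the bird highest in muscle genes, had the highest value, 14.05. Among 9 tested partners and coactivators of the receptors, the one called DE was RXRG, a retinoid X receptor that pairs with PPARs. RXRG read 5.73, 5.49, 4.95 and 5.40 in HS birds, against 6.31, 5.78, 6.27 and 6.61 in TR birds, a log2 change of -0.85 in HS vs. TR (SE 0.19, adjusted p = 0.0708), with all HS birds below all TR birds. It was above background on 2 HS arrays and all TR and CL arrays, so it entered the fit only through the groups where it was brighter and its call supports nothing about the list. It was not in the fit with probes above background on all 12 arrays, and it was not DE without TR4, with normexp background correction or with the neuropeptide sum as a covariate.

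ESRRG, an orphan receptor that works with PPARGC1A, read 11.40, 11.15, 11.49 and 11.64 in HS birds, against 10.98, 11.11, 10.93 and 10.81 in CL birds. All HS birds lay above all CL birds (log2 change 0.46, SE 0.12, limma adjusted p = 0.0687), under the fold limit, and without HS2 and CL2 the change was 0.60 and DE. None of the 7 tested PPAR target genes was DE, with FABP4 at 0.50 and LPL at 0.31 furthest from zero. FABP4 is also on the list of fat cell markers, whose summed signal over 6 measured genes, all above background on every array, was 4629 to 8230 in HS, 3097 to 3775 in TR and 3028 to 4933 in CL. Of that list DGAT2 (1.10) and RBP4 (2.05) were DE and higher in HS vs. CL. PLIN1 (-0.23), ADIPOQ (0.11), CEBPA (-0.15) and FABP4 were not DE there. STK11, the kinase that activates AMPK, had -0.55 (limma adjusted p = 0.211). It was above background on 2 HS arrays and all TR and CL arrays, so it too entered the fit only through TR and CL. PRKAG2, a regulatory subunit, had 0.24 (limma adjusted p = 0.213), and none of 7 genes of that list was DE.

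Glucose use showed no DE gene among 12 tested of 22 listed, where 3.58% of all tested probes were DE in HS vs. CL. ENO2, the neuronal enolase, had the largest change, 0.77 in HS vs. CL (SE 0.34, limma adjusted p = 0.225), with 13.84 on HS4, and it is also on the neuron list whose sum was highest there. PFKM, the muscle phosphofructokinase, had -0.52 (adjusted p = 0.727), with 10.30 on HS2 and 11.77 on CL2, the birds highest in muscle genes, and 8.09 to 8.74 on the others. Ketone genes BDH2 and SLC16A1 had -0.16 and -0.13, ACACA, which makes malonyl-CoA, had -0.06, and in the fasting and FOXO list PCK2 had -0.39 and CEBPB -0.14, none of them DE.

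**Figure D5:**
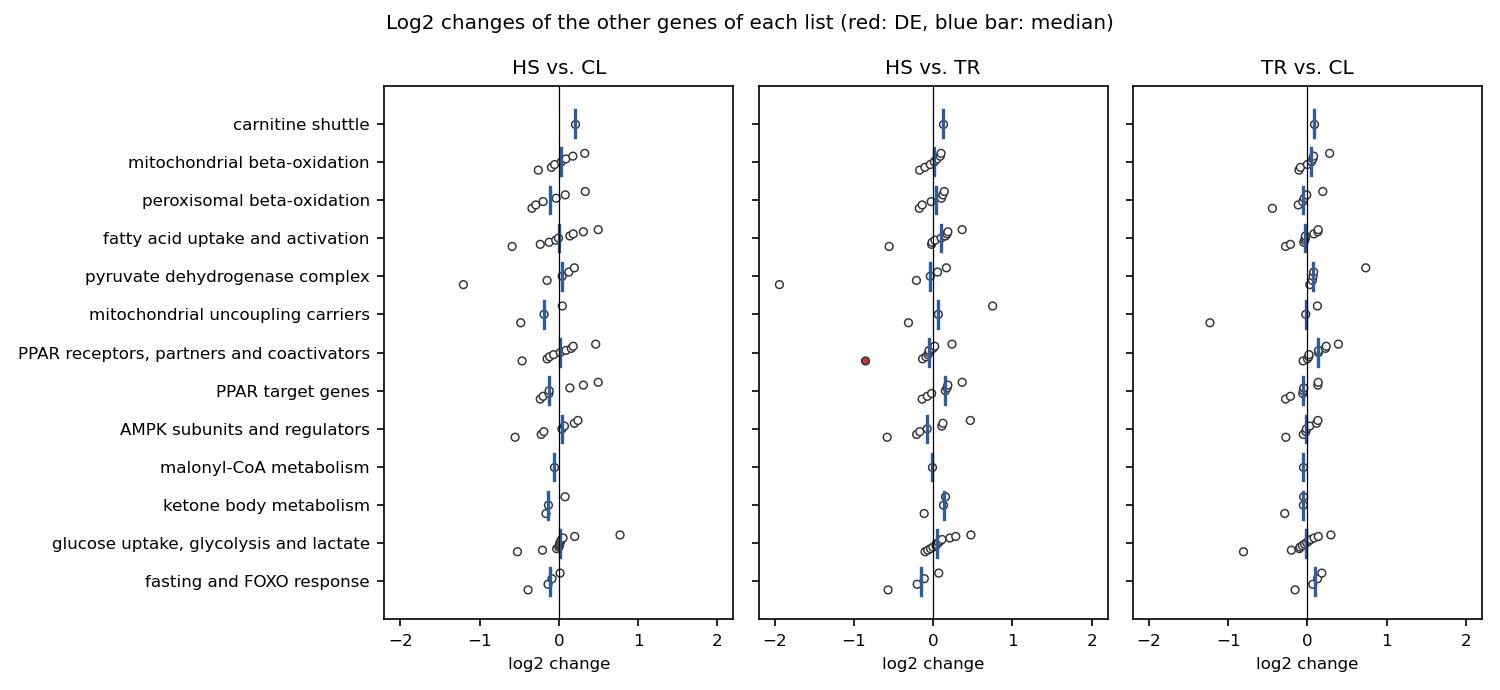
Log2 change of each tested gene of the 13 lists, members left out, 1 panel for each comparison; each circle is 1 gene at its brightest probe, the blue bar is the list's median and red marks a DE gene. RXRG in HS vs. TR (-0.85) is the DE gene, DLAT (-1.20 and -1.94 in the contrasts with HS) is the gene furthest from zero, and the medians lie near zero. RXRG and DLAT were tested only through TR and CL, the groups where they were brighter.

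Over the 12 arrays, UCP3 ran opposite to PDK4 (r = -0.790 at probe A_87_P112083 and -0.621 at A_87_P056696), and no other member had an r beyond 0.43 in size with PDK4. These are descriptions over birds of 3 groups. The study picked PDK4 as raised and UCP3 as lowered on these arrays, so an opposite course was partly set by that choice. The contrast with members not picked in this way has the same limit. Probe A_87_P112083 also passed the filter only through TR and CL, the groups where it was brighter. Among 4125 named genes above background on all arrays, those most like PDK4 included SOD1 (r = 0.871), the cytosolic superoxide dismutase, MBLAC2 (0.859), SST1, the neuropeptide somatostatin (0.831), and ATP6V1E1 (0.826), a subunit of the vesicular proton pump. SST1 spanned 10.36 to 14.17 in HS birds, 7.12 to 9.52 in TR birds and 5.43 to 10.11 in CL birds, whereas SOD1 spanned 15.04 to 15.22 in HS birds, 14.94 to 15.10 in TR birds and 14.83 to 15.02 in CL birds.

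Those most like the brighter UCP3 probe included CCT7 (r = 0.923), a subunit of the cytosolic chaperonin, SOX18 (0.857), a transcription factor of vessel walls, BGN (0.846) and COL6A3 (0.827), the last 2 being matrix proteins. These 4 were highest on TR1 and CL2, the birds with the highest UCP3. For CROT, by the same measure but chosen after its values were seen, they included STRAP (0.949), NR2E3 (0.895), ZNF622 (0.871) and IGF2BP3 (0.831). STRAP spanned 11.66 to 12.28, a far smaller range than that of CROT.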

How the data were processed

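RNA of 12 hypothalamus samples, 4 per group, was measured on 1-colour Agilent arrays. The authors extracted the spots with Feature Extraction 10.7.3.1 and deposited 1 file per array, whose processed intensity is background-subtracted, with marks of spots above background and of outliers. They also deposited a table of quantile-normalized log2 values, used here only as an alternative (43606 rows, 65.64% matching the feature of their own number and 99.95% a feature within 12 numbers; its values differed from those used here by 0.00872 at most at the 20 probes).

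From the intensities, log2 values without outlier spots (420 values of 220 probes left out) were quantile-normalized and averaged per probe. The filter left 34930 probes. They were fitted in limma 3.58.1 (R 4.3.3, jsonlite 2.0.0) with the 3 groups sharing 1 spread, and p-values were Benjamini-Hochberg adjusted over all probes tested. The fit was checked on simulated arrays. Figures used matplotlib 3.10.9 (Python 3.11.15, numpy 2.4.6, pandas 2.3.3).

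Accessions were named through RefSeq's table of GRCg7b, which named 10185 probes for 4814 genes. PDK4 was named from the study's own list, which pairs its accession with the symbol. List genes were matched by exact symbol (somatostatin as SST1), the brightest probe standing for its gene. Named were all member probes, from each list the genes DE in any comparison or otherwise the 2 with the largest change in HS vs. CL, and the 5 genes most correlated with PDK4 and with UCP3, some of which are not reported here. PDK1, PDK3, ESRRG with RXRG, DBI, the genes near CROT and those like CROT were singled out after their values were seen. The members and lists were chosen with earlier results of these data known. Nothing says that RNA was pooled, and each array is 1 bird, so n counts birds. Array number limits the precision.

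Other settings tried were each array's 75th percentile as scale, normexp with an offset of 50, other filters, outliers kept, FDR under 0.05, the methods' t-test (named there for qRT-PCR), 2-group fits, a replicate block, array weights, the deposited table, arrays left out and, added later, the neuropeptide covariate. The marker lists were striated muscle, adipocyte, smooth muscle and vessel, erythroid, lymphoid and spleen, neuron, astrocyte, oligodendrocyte, hypothalamic neuropeptide, choroid plexus and pituitary genes.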

Additional observations from a re-analysis of the deposited data

Results flagged for a closer look

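Among 45 sets of 4 arrays (15 probes, 3 groups), 4 held a value far from the other 3, and chance gives about 1 in 20. CROT stood at 11.72 on TR1 where the nearest other TR bird had 7.04, and at 6.19 on CL2 where the nearest other CL bird had 11.96. PPARA A_87_P037843 was 8.95 on TR2 with the nearest TR bird at 8.89, and PRKAA1 A_87_P009672 was 7.03 on TR1 with the nearest TR bird at 7.60.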

How the results depend on the processing

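The count of DE member probes in HS vs. CL, 2 as reported, was 1 with scaling to the 75th percentile, normexp, probes above background on all 12 arrays, the methods' t-test, a fit to only 2 groups, a replicate block or array weights, PDK4 being the probe past the cutoffs each time. PDK4, UCP3 and CROT were chosen on these arrays, so these counts describe and support nothing. It was 0 with FDR under 0.05, without HS2 and CL2, and with the neuropeptide covariate. Leaving out 1 bird gave 1 to 2, with log2 changes of 1.15 to 1.43 for PDK4 and -0.81 to -0.48 for UCP3 A_87_P112083. In HS vs. TR the count, 0 as reported, was 1 with 2 groups, array weights or without HS2 and CL2 (CROT each time) and 0 to 2 with 1 bird left out, and for TR against CL it stayed at 0 in all of these.

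For the pathway genes, HS vs. CL (0) gave 1 without HS2 and CL2 and 0 to 2 with 1 bird left out. HS vs. TR (1) gave 2 with the 75th percentile, outliers kept, array weights or the deposited table, 0 with probes above background on all 12 arrays, FDR under 0.05, the t-test or the neuropeptide covariate, and 0 to 3 with 1 bird left out (0 without TR4). With normexp it was 1, PCK2 in place of RXRG.

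Over all probes, DE counts were 1250 for HS against CL, 644 for HS against TR and 33 for TR against CL. In that order they were 668, 306 and 19 with normexp, 351, 157 and 0 with FDR under 0.05 (2719 at an unadjusted p under 0.05 in TR vs. CL), 413, 254 and 1 with the t-test, 878, 459 and 10 with 2 groups, 1250, 523 and 20 with the replicate block, 1434, 1109 and 47 with array weights, 759, 707 and 11 without HS2 and CL2, and 49, 75 and 11 with the covariate. With 1 bird left out they ran from 493 (without HS3) to 1860 (without HS1) for HS against CL, from 255 to 1186 for HS against TR and from 0 to 42 for TR against CL. Scaling to the 75th percentile gave 57 in TR vs. CL.

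Some changes near zero turned sign, all of them uncalled. With normexp, PPARD gave 0.0193 for HS against CL, -0.008 for HS against TR and 0.0273 for TR against CL, and for TR against CL UCP3 A_87_P056696 gave 0.0071, PPARGC1A -0.0051 and PPARA 0.0269. With array weights, PPARD gave 0.0079, -0.0105 and 0.0184 in the same order of comparisons, and UCP3 A_87_P056696 0.0317 for TR against CL. Without HS2 and CL2, CPT1A gave -0.0127 and PPARD 0.0305 for HS against CL, PPARD -0.0361 for HS against TR, and for TR against CL UCP3 0.16 at both probes, PPARD 0.0666 and PRKAA1 -0.0362. With the covariate, PPARD gave 0.21 for HS against CL and 0.0073 for TR against CL, PPARA 0.0172 for HS against TR and UCP3 A_87_P056696 0.0337 for TR against CL.

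With 1 bird left out, PPARD ran from -0.0817 to 0.0903 for HS against CL, from -0.0361 to 0.0959 for HS against TR and from -0.1054 to 0.0666 for TR against CL, and PPARA from -0.0625 to 0.0344 for HS against TR. For TR against CL, UCP3 ran from -0.11 to 0.16 and from -0.18 to 0.16 at its 2 probes and PRKAA1 from -0.0362 to 0.13. The cause of these shifts was not tested. Same-numbered birds of different groups mostly did not deviate together (12 correlations from -0.154 to 0.368, median 0.036). HS2 with CL2, the birds highest in muscle genes, gave the value of 0.368, and pairs of unlike number reached 0.241 at most. The replicate block changed no member's call but that of UCP3 A_87_P112083. Dim probes limit UCP3, PPARGC1A, PPARG and PRKAA2.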
